A study of Homo sapiens with 16 samples.

Results

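The comparison set 4 libraries of lactate-treated cells against 4 libraries of cells given I-BET762, 8 of the 16 RNA sequencing libraries of the series, with members taken by the treatment label as deposited. It covered 14690 of the 64792 gene identifiers in the table, those that passed a filter on low counts. All libraries are titled DU145, a human cell line established from a prostate carcinoma (the cell line field of the 4 libraries with both agents carries other numbers, and the titles were followed), and no dose, duration or vehicle was given for either agent in the sources used here. The lactate group received lactate and no I-BET762, and the I-BET762 group received I-BET762 and no added lactate. The other 8 libraries, 4 controls with neither agent and 4 with both, entered the estimate of the spread and are shown for reference. Lactate, lipid metabolism and the epigenome are the subjects named in the title. The replicates are called independent in the labels, and p-values measure the spread between these libraries, all from 1 cell line. Because the contrast has no untreated arm, a gene that was higher with lactate can equally be read as lower with I-BET762, and the controls are given beside many of the genes described.

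Lactate enters and leaves cells through monocarboxylate transporters and is interconverted with pyruvate by lactate dehydrogenase, which ties it to glycolysis, to the pyruvate dehydrogenase step and to the supply of acetyl groups. I-BET762 is a small molecule that occupies the bromodomains of the BET proteins, readers of acetylated histones that help to release paused RNA polymerase through the kinase complex P-TEFb. HEXIM1 encodes an inhibitor of P-TEFb and is known to rise under BET inhibitors, as are several histone genes.

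Total counts were 10711859 to 17173584 in the lactate libraries and 13741178 to 16847884 in the I-BET762 libraries. The line's epithelial markers KRT8 (737.3 to 1426.0 CPM, counts scaled to a common library size of 1e6, over the 16 libraries), KRT18 (740.1 to 1221.4 CPM) and CDH1 (44.7 to 206.3 CPM) were present throughout. Markers of other cell types were low, with summed levels of 3.5 to 5.21 CPM with lactate and 1.96 to 3.89 CPM with I-BET762 for 10 leukocyte genes, CD3E, MS4A1 and NKG7 being at 0 counts in all 8. The sums were 6.2 to 11.2 and 5.6 to 9.09 CPM for 10 fibroblast genes, with DCN and FAP at 0, and 1.92 to 3.23 and 0.808 to 2.49 CPM for 8 endothelial genes, with EMCN at 0. Neuroendocrine genes summed to 93.7 to 148.4 CPM with lactate and 45.2 to 64.9 CPM with I-BET762, with CHGA and INSM1 at 0, 7 of the 9 under 10 counts in every library, and ENO2, which is also a glycolytic enzyme, making up most of the sum. CD68 (1.09, adjusted p = 0.0361 in edgeR's quasi-likelihood test) was the 1 leukocyte marker of 3 tested that was called, at a mean of 0.779 CPM, and the part of other cell types in the results was not tested. The luminal gene KLK3 had at most 1 count. Some genes that cells generally use, such as RPL7A and VARS1, also had 0 counts in all 8 libraries, so a count of 0 was not read as absence of a transcript.

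Lactate replicate 1 stood apart. The chi-square statistic per gene between this library and its partners, where 1 is sampling noise, was 69.3 to 161.9, against 12 to 43.6 among the other lactate libraries and 11.4 to 16.9 between I-BET762 libraries other than replicates 3 and 4. Those 2 differed by 2 per gene, far less than the other pairs but above sampling noise, and were kept as separate libraries. The inhibitor label of replicate 2 was in doubt from HEXIM1, so results are given with all libraries and, where it matters, without lactate replicate 1 and the library labelled I-BET762 replicate 2, called here the doubted pair.

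HEXIM1 (ENSG00000186834) was examined first as a check of the labels. Its levels with lactate were 69.6, 86.0, 81.1 and 72.1 CPM in replicates 1 to 4. In the libraries labelled I-BET762 replicates 1 to 4 it stood at 148.8, 89.6, 113.3 and 113.8 CPM. Replicate 2 was the lowest of its group and lay just above the highest lactate library, so the groups did not overlap. The fitted log2 difference, lactate minus I-BET762, was -0.59 ± 0.19 (SE), at an adjusted p of 0.048 in edgeR's quasi-likelihood test, and -0.66 (adjusted p = 0.0388) without the doubted pair, a value that follows from leaving out a library doubted for this gene and is no support for the label. The call was lost under 12 of 24 other settings, 6 of them the leaving out of any 1 library other than lactate replicate 2 or I-BET762 replicate 2 (edgeR adjusted p = 0.0536 to 0.152). Among the controls, replicate 2 reached 135.1 CPM and the other 3 lay at 70.0 to 77.4 CPM. Whether control replicate 2 and I-BET762 replicate 2 were exchanged was not tested, and every comparison with control given here includes both. In HEXIM1, H2BC5 and H2BC21, control replicate 2 was the highest control and I-BET762 replicate 2 the lowest of its group. SLC7A5 had the reverse, with control replicate 2 lowest (269.2 CPM) and I-BET762 replicate 2 highest (457.4 CPM). For SREBF1 these libraries stood at 37.2 and 78.1 CPM, the latter the highest of its group. These genes were picked after their values were seen, and other genes were not counted. SERPINI1, another gene reported to rise under BET inhibitors, did not pass the test (-0.19 ± 0.17, adjusted p = 0.432), with 13.0 CPM in the library labelled I-BET762 replicate 2 and 18 to 19.6 CPM in the other 3.

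Of the 14690 genes, 2007 (13.7%) differed between lactate and I-BET762 at an adjusted p under 0.05. Of these, 1204 (8.2% of the genes tested) were higher with lactate and 803 (5.47%) were higher with I-BET762. The lactate side held more of the large differences, with 529 genes at 2-fold or more against 91 on the I-BET762 side. These 2-fold counts include genes with few reads and were not repeated without the doubted pair. The median log2 difference over all tested genes was 0.02. In bulk RNA, a change in the share of cells that express a gene and a change in RNA per cell cannot be told apart. Without the doubted pair 1338 genes (9.11%) were higher with lactate and 986 (6.71%) with I-BET762, and 1577 of the 2007 genes were called again in the same direction. With only the 8 libraries in the fit, the counts fell to 437 (2.97%) and 118 (0.803%). The count of 2007 also moved with single libraries. It was 3543 without lactate replicate 2, 1053 without lactate replicate 4, and 1062, 908 and 866 without I-BET762 replicates 1, 3 and 4.

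**Figure D1:**
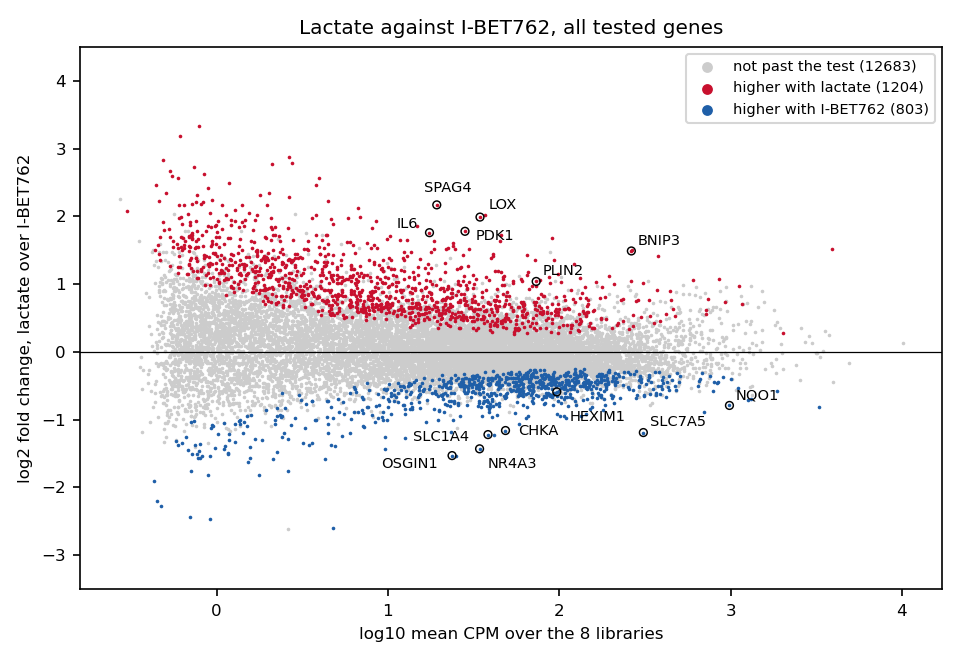
Each point is 1 of 14690 genes, with the log10 mean CPM over the 8 libraries on the horizontal axis and the log2 fold change, lactate over I-BET762, on the vertical axis. Red and blue points passed the test (1204 and 803 genes), and the red points reach further from 0 than the blue ones; circles mark genes named in the text.

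The genes at the ends of the ranking were SPAG4, PPP1R3G, LOX, IGFBP3, SCIRT, PDZK1IP1, NUDT18, HLA-DRB1, PDK1, IL6, TNNT1 and CCN5 on the lactate side and H2BC19P, OSGIN1, SLC25A25-AS1, NR4A3, RASD1, VAMP1, AC006538.1, SLC1A4, SMG1P7, SLC7A5, H4C8 and CHKA on the I-BET762 side. These were the 12 largest differences in each direction among genes that were called with and without the doubted pair, averaged at least 5 CPM and did not overlap between the groups, so their separation is part of how they were chosen. Of all tested genes, 16.9% did not overlap, 8.52% with the lactate libraries higher and 8.41% with the I-BET762 libraries higher.

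SPAG4, a nuclear envelope protein gene on chromosome 20 (35615892 to 35621049, plus strand, GRCh38), stood at 43.6, 29.2, 23.9 and 29.7 CPM with lactate. With I-BET762 it stood at 6.43, 7.84, 7.54 and 6.09 CPM, and the controls at 4.73 to 5.89 CPM. The difference was 4.51-fold (log2 2.17 ± 0.17, adjusted p = 6.46e-06 in edgeR). PPP1R3G, a glycogen-targeting subunit of protein phosphatase 1, was 4.39-fold higher with lactate (10.9 ± 1.01 against 2.5 ± 0.786 CPM, SD, n = 4 and 4, edgeR adjusted p = 4.99e-05), with controls at 2.43 to 3.83 CPM. IGFBP3, which binds insulin-like growth factors, was 3.96-fold higher, and its lactate replicate 2 at 15.7 CPM exceeded the other 3 at 9.15 to 9.75 CPM. HLA-DRB1, an MHC class II chain, was 3.55-fold higher, but it belongs to a family of near-identical genes and its counts are uncertain. TNNT1, the slow skeletal troponin T, was 3.3-fold higher and CCN5, a matricellular protein, 3.26-fold. NUDT18, a nucleotide hydrolase, was 3.63-fold higher. SCIRT, annotated as an antisense transcript, was 3.95-fold higher, and reads of a partner gene cannot be told apart from its own without a stated strand setting.

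On the I-BET762 side, OSGIN1, an oxidative stress-induced growth inhibitor on chromosome 16 (83948282 to 83966332, plus strand, GRCh38), stood at 11.2, 9.14, 14 and 14.4 CPM with lactate. It stood at 32.2, 24.5, 45.2 and 39.2 CPM with I-BET762, a 2.89-fold difference (log2 -1.53 ± 0.23, edgeR adjusted p = 0.000731). The controls lay at 11.8 to 21.3 CPM, closer to the lactate libraries than to the I-BET762 libraries. NR4A3, an orphan nuclear receptor induced early after stimulation, showed the other arrangement, with 13.3 to 23.0 CPM with lactate, 42.5 to 58.0 CPM with I-BET762 and 40.4 to 50.6 CPM in controls (log2 -1.43 ± 0.18, edgeR adjusted p = 0.0002). CHKA, choline kinase alpha, the first enzyme of phosphatidylcholine synthesis, stood at 27.5 to 34.0 CPM with lactate, 66.1 to 70.1 CPM with I-BET762 and 53.4 to 58.6 CPM in controls (log2 -1.16 ± 0.14, edgeR adjusted p = 0.00016). RASD1, a small GTPase induced by glucocorticoids, differed by -1.27 and VAMP1, a vesicle fusion protein, by -1.25 on the log2 scale. H2BC19P and SMG1P7 are annotated as pseudogenes, SLC25A25-AS1 as antisense and AC006538.1 as intronic, so reads may be shared with related or overlapping genes.

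**Figure D2:**
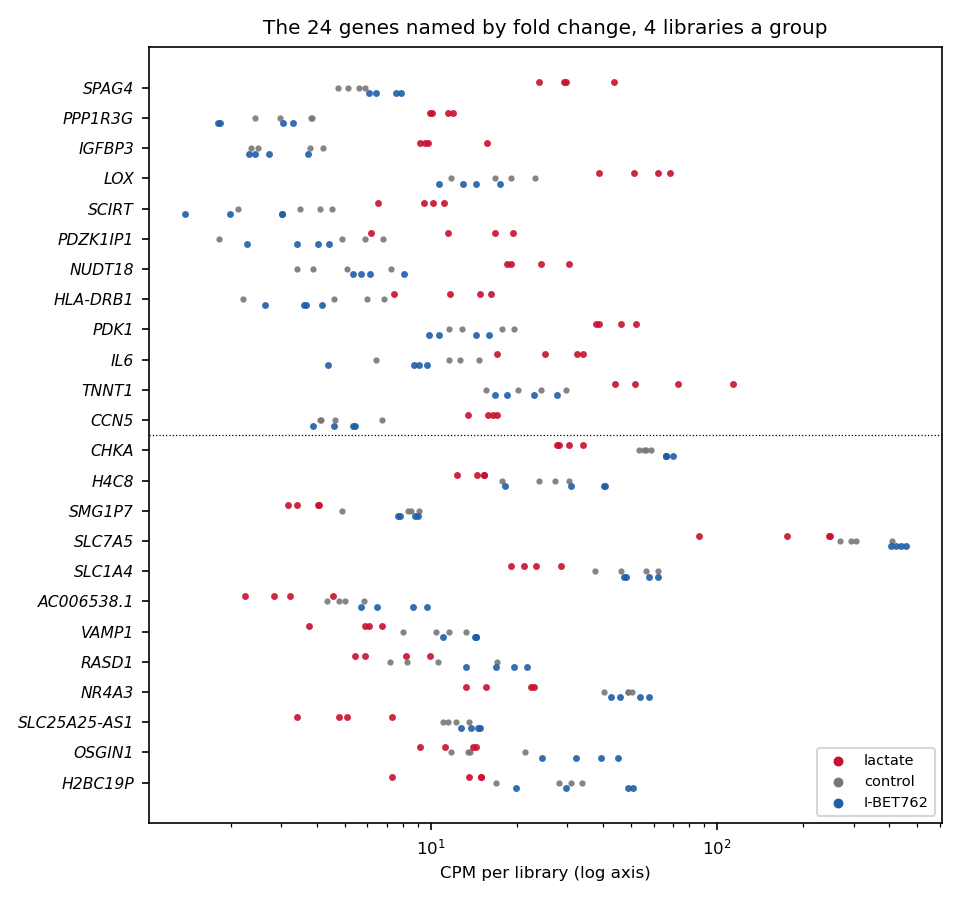
Level of the 24 genes with the largest differences, in CPM on a log axis, 1 point per library; red is lactate, grey control and blue I-BET762. Above the dotted line the lactate points lie to the right, below it the I-BET762 points do, and the controls of OSGIN1 lie near the lactate points while those of NR4A3, SLC1A4 and CHKA lie near or among the I-BET762 points.

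Among the gene lists, chosen with earlier results of these data known, genes of the hypoxia response had the largest share of calls. These are targets of the hypoxia-inducible factors (HIF), whose alpha subunits are marked for destruction by oxygen-dependent prolyl hydroxylases. Of 24 tested members 18 (75%, against 8.2% of all tested genes) were higher with lactate and none with I-BET762. The median log2 difference was 0.96. Without the doubted pair, 16 were called and the median was 0.84. The core of the sequence that HIF binds is ACGTG or GCGTG, which is shown because most members of the list were called in 1 direction. The promoter windows of 3 of the most strongly called members follow, with matches on either strand in capitals, from the RefSeq promoter table (GRCh38.p14, 250 bases before to 50 bases after the annotated start, all on the minus strand). BNIP3 is read at chr10:131981874-131982173, LOX at chr5:122078210-122078509 and P4HA1 at chr10:73096817-73097116.
BNIP3: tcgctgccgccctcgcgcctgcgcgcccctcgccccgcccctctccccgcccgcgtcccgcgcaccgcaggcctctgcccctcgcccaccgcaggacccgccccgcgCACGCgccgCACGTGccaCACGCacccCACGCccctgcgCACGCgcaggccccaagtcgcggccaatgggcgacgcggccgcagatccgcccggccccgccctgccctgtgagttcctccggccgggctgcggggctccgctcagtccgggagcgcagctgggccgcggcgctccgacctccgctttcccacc
LOX: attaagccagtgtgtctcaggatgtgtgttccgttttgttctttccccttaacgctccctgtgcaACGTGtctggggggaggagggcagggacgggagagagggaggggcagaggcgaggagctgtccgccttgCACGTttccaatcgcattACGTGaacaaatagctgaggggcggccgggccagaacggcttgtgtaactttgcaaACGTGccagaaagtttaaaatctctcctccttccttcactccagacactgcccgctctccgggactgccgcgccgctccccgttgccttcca
P4HA1: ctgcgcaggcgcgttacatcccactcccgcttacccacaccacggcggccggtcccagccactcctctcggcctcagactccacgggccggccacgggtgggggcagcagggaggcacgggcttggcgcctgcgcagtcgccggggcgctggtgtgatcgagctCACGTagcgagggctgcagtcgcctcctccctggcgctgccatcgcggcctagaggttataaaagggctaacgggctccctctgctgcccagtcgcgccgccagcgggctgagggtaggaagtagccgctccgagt

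BNIP3 held 6 matches, some of them overlapping, LOX 4 and P4HA1 1, and the window of PDK1 held none. The letters are common. Either motif occurred in 63.4% of the promoters of tested genes that matched the table (10758 genes), in 57.8% of those higher with lactate and in 66.7% of those higher with I-BET762. Among 20 matched hypoxia members either motif occurred in 15 (75%), and in 10 of the 15 called (66.7%). ACGTG alone occurred in 11 of the 20 (55%), against 26.4% of all tested genes, and GCGTG in 9 (45%), against 51.0%. A match describes letters, not binding.

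BNIP3, a mitophagy receptor on chromosome 10 (131966455 to 131982013, minus strand, GRCh38), stood at 467.8, 344.8, 333.4 and 410.5 CPM with lactate. With I-BET762 it stood at 158.5, 123.4, 142.8 and 129.5 CPM, a 2.81-fold difference (log2 1.49 ± 0.13, edgeR adjusted p = 6.62e-06). Every lactate library was above every I-BET762 library, and the controls (124.5 to 168.4 CPM) lay among the latter. PDK1, a kinase that inhibits pyruvate dehydrogenase, stood at 46.2, 52.2, 38.6 and 37.9 CPM against 16.0, 14.4, 10.7 and 9.88 CPM (log2 1.78 ± 0.18, edgeR adjusted p = 4.99e-05). LOX, which crosslinks collagen, stood at 38.6, 68.7, 62.0 and 51.3 CPM against 10.7, 13.0, 17.5 and 14.4 CPM (log2 1.99 ± 0.21, edgeR adjusted p = 4.99e-05). NDRG1, a stress-responsive gene often used as a hypoxia marker, was 2.84-fold higher (390.9 against 137.7 CPM on average, log2 1.51 ± 0.15). P4HA1, a collagen prolyl hydroxylase subunit, differed by 0.96 and EGLN3, one of the HIF prolyl hydroxylases, by 1.03. The 6 members not called were EGLN2 (-0.53), KDM3A (0.25), VEGFA (0.16), EGLN1 (0.11), STC2 (0.09) and ADM (0.07). The list therefore did not move as a whole: VEGFA and ADM, secreted HIF targets, had differences near the median of all genes. CA9 had at most 2 counts and was not tested.

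Set against the controls, the difference lay on the lactate side. BNIP3 differed from control by 1.44 with lactate (adjusted p = 1.08e-05) and by -0.05 with I-BET762 (adjusted p = 0.947), and PDK1 by 1.5 (adjusted p = 0.000164) and -0.28 (adjusted p = 0.654). LOX differed by 1.64 (adjusted p = 0.000194) and -0.35 (adjusted p = 0.606). All of these edgeR comparisons with control use the same control libraries.

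Glycolysis genes were called in 8 of 20 on the lactate side (40%, against 8.2% of all tested genes). On the I-BET762 side 1 of 20 was called (5%, against 5.47% of all tested genes), and the median was 0.24. The lactate side held PFKFB4, HK2, ENO2, PFKL, PGK1, TPI1, PFKFB3 and GPI. PFKFB4, which makes the activator of phosphofructokinase, stood at 46.5, 64.4, 59.6 and 68.5 CPM with lactate and at 19.5, 22.9, 22.2 and 23.6 CPM with I-BET762, with controls at 19.6 to 23.8 CPM (log2 1.44 ± 0.12, edgeR adjusted p = 6.62e-06). HK2, the inducible hexokinase, stood at 23.7, 51.8, 40.2 and 32.4 CPM against 16.0, 10.6, 18.9 and 17 CPM, with controls at 16.1 to 25.7 CPM (log2 1.24 ± 0.21, edgeR adjusted p = 0.00199). PGK1 differed by 0.78 ± 0.10 and the enolase ENO2 by 1.11 ± 0.15, without overlap. PFKFB2, a paralogue of PFKFB4, was called in the other direction (-0.57). GAPDH (0.13), PKM (-0.16), ALDOA (-0.43) and the glucose transporter SLC2A1 (-0.06) were not called. Lactate replicate 1 was the lowest of the 4 lactate libraries in the mean of this list. Its deviation from the mean of the 8 libraries was -0.17 in log2 CPM, within the I-BET762 range of -0.25 to -0.02. The other lactate libraries lay at 0.25 to 0.30. Without the doubted pair 10 of 20 members were called higher with lactate. With only the 8 libraries in the fit, 5 were.

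Genes that handle lactate and pyruvate were called in 6 of 21 on the lactate side (28.6%, against 8.2% of all tested genes). None was called on the other side, and the median was 0.27, or 0.11 without the doubted pair. The called genes were the 4 pyruvate dehydrogenase kinases PDK1, PDK2 (0.53), PDK3 (0.66) and PDK4 (1.02), the transporter SLC16A3 and LDHD. SLC16A3 encodes MCT4, the monocarboxylate transporter associated with lactate export. It stood at 217.2, 258.0, 351.7 and 326.5 CPM with lactate and at 177.5, 170.1, 178.2 and 157.5 CPM with I-BET762 (log2 0.76 ± 0.18, edgeR adjusted p = 0.0127). The controls were lower than both, at 80.7 to 133.4 CPM, and the fitted differences from control were 1.44 with lactate (edgeR adjusted p = 0.00019) and 0.69 with I-BET762 (edgeR adjusted p = 0.0753). The lactate dehydrogenase genes LDHA and LDHB were not called. LDHA stood at 1298.4 to 1687.5 CPM against 1131.2 to 1412.1 CPM (log2 0.30 ± 0.11, edgeR adjusted p = 0.0813), and was called without the doubted pair (0.38, edgeR adjusted p = 0.029). LDHB stood at 310.4 CPM in lactate replicate 1 and at 58.5, 51.9 and 109.7 CPM in replicates 2 to 4, around 71.0 to 87.5 CPM with I-BET762, so its difference of 0.75 became -0.07 without the doubted pair. LDHD, the D-lactate dehydrogenase, rested on 7, 5, 23 and 28 counts with lactate and 4, 1, 0 and 2 with I-BET762 (log2 3.19 ± 0.65, edgeR adjusted p = 0.00577). SLC16A1 had at most 1 count and was not tested.

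**Figure D3:**
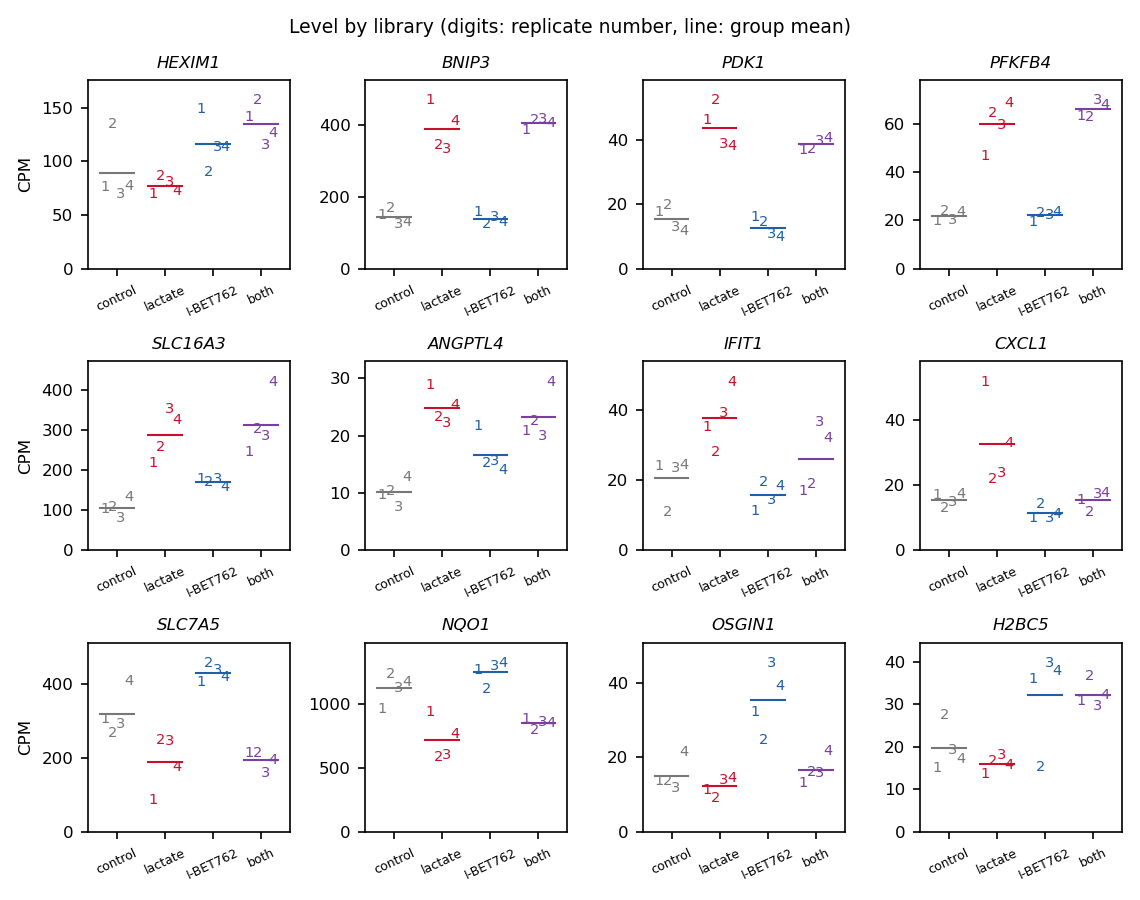
Level in CPM of 12 genes in the 4 groups; digits are replicate numbers and horizontal lines group means. For BNIP3, PDK1 and PFKFB4 the groups with lactate stand above those without it, and for HEXIM1 and H2BC5 replicate 2 of I-BET762 lies below the other 3 libraries of its group.

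Lipid genes did not move as 1 block. Cholesterol synthesis and uptake was called in 7 of 25 members on the lactate side (28%, against 8.2% of all tested genes). None was called on the other side, and the median was 0.28. NSDHL, a sterol dehydrogenase, stood at 112.3 to 124.5 CPM with lactate and 72.6 to 87.4 CPM with I-BET762, with controls at 84.8 to 93.4 CPM (log2 0.55 ± 0.09, edgeR adjusted p = 0.000957). FDPS, which makes farnesyl diphosphate, differed by 0.70 ± 0.13, and TM7SF2, a sterol reductase, by 0.80 ± 0.15. Against control, TM7SF2 differed by 1.42 with lactate (edgeR adjusted p = 8.82e-05) and by 0.62 with I-BET762 (edgeR adjusted p = 0.0694). SQLE (-0.04), an epoxidase of the pathway, was not called. With only the 8 libraries in the fit, 2 of the 25 were called.

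Fatty acid synthesis and activation was called in 2 of 21 on the lactate side and 1 of 21 on the other, shares close to those of all tested genes. ACSS2, which makes acetyl-CoA from acetate, stood at 227.2, 330.9, 316.7 and 321.4 CPM with lactate and at 182.5, 180.0, 167.5 and 167.3 CPM with I-BET762, with controls at 173.3 to 208.0 CPM (log2 0.78 ± 0.11, edgeR adjusted p = 0.00064). MLXIPL, the carbohydrate-responsive factor ChREBP, differed by 0.87 ± 0.16. SREBF1, a master regulator of lipid synthesis, was higher with I-BET762, at 65.4 to 78.1 CPM against 30.2 to 52.9 CPM (log2 -0.65 ± 0.17, edgeR adjusted p = 0.0219), a call lost without the doubted pair (-0.46, edgeR adjusted p = 0.0573). FASN (-0.17), ACLY (0.06) and SCD (-0.20) were not called.

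Lipid droplet and triglyceride genes were called in 3 of 20 in each direction (15% each), or 2 and 1 with only the 8 libraries in the fit. Of all tested genes, 8.2% were called on the lactate side and 5.47% on the I-BET762 side. PLIN2, a lipid droplet coat protein, stood at 104.1, 94.6, 94.7 and 101.2 CPM with lactate and at 38.2, 61.1, 47.2 and 45.9 CPM with I-BET762 (log2 1.04 ± 0.17, edgeR adjusted p = 0.00129), and the controls at 42.5 to 67.8 CPM lay with the latter. HILPDA, an inhibitor of the lipase ATGL, differed by 1.52 ± 0.25, or 1.03 without the doubted pair, since lactate replicate 1 reached 66.6 CPM and the other lactate libraries 23.2 to 32.7 CPM. PNPLA2, which encodes ATGL (-0.76), GPAT3, an acyltransferase of triglyceride synthesis (-0.62 ± 0.11), and BSCL2, which encodes seipin (-0.83 ± 0.23), were higher with I-BET762. Fatty acid oxidation was called in 2 of 25 in each direction, again close to all tested genes. CPT1A, which admits fatty acids to mitochondria, was not called (-0.28 ± 0.11, edgeR adjusted p = 0.0865).

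Targets of the PPAR nuclear receptors were called in 6 of 15 on the lactate side (40%, against 8.2% of all tested genes). None was called on the other side, and the median was 0.32. The 6 were UCP2, PLIN2, HILPDA, TXNIP, ANGPTL4 and PDK4, and HILPDA is also on the hypoxia list. PLIN2 and HILPDA are counted in the lipid droplet list and PDK4 in the lactate and pyruvate list as well. TXNIP is also on the list of genes reported to rise under BET inhibitors, described below. UCP2, a mitochondrial carrier, stood at 36.4, 79.5, 78.0 and 79.9 CPM with lactate and at 30.0, 21.3, 19.5 and 17.8 CPM with I-BET762, with controls at 16.4 to 36.5 CPM (log2 1.63 ± 0.26, edgeR adjusted p = 0.00127). ANGPTL4, a secreted lipase inhibitor, stood at 22.2 to 28.8 CPM against 14 to 21.6 CPM (log2 0.58 ± 0.17, edgeR adjusted p = 0.0362), a call lost without the doubted pair (0.45, edgeR adjusted p = 0.121), and both groups lay above the controls at 7.55 to 12.7 CPM. TXNIP, an arrestin-like inhibitor of glucose uptake, was low, at 2.89 to 9.53 CPM against 0.761 to 2.2 CPM. The oxidation enzymes HADHA (-0.10) and ACADVL (0.32) were not called.

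Interferon-stimulated genes, antiviral effectors induced through interferon receptors, were called in 8 of 18 on the lactate side (44.4%, all tested genes 8.2%). None was called on the other side, and the median was 0.87. The count on the lactate side was 10 of 18 without the doubted pair and 4 of 18 with only the 8 libraries in the fit. The called members were IFI6, IFIT1, OASL, OAS1, OAS2, IFI44, ISG15 and IFITM3. The core of the interferon-stimulated response element, searched on both strands, occurred in 9 of 13 matched members and in 2.57% of all tested genes with a promoter in the table. The window of IFI6, chosen after its values were seen, lies at chr1:27672143-27672442 on the minus strand (RefSeq, GRCh38.p14) and holds 3 matches, in capitals.
IFI6: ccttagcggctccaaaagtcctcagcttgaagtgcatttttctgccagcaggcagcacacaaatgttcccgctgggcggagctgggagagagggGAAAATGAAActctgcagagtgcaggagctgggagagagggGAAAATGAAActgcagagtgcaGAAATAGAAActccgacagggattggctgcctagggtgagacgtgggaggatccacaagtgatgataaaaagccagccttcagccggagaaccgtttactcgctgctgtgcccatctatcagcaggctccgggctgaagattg

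IFI6 stood at 32.4, 13.2, 23.6 and 28.6 CPM with lactate and at 7.33, 10.5, 11.3 and 10.4 CPM with I-BET762, with controls at 6.07 to 15.9 CPM (log2 1.30 ± 0.29, edgeR adjusted p = 0.00871). IFIT1, which binds foreign RNA caps, stood at 35.3, 28.0, 39.3 and 48.1 CPM against 11.1, 19.6, 14.2 and 18.2 CPM (log2 1.26 ± 0.28, edgeR adjusted p = 0.00945). The groups did not overlap in either gene. In the controls IFIT1 lay at 11 CPM in replicate 2, the library that also stood apart in HEXIM1, and at 23.6 to 24.4 CPM in the other 3. STAT2 (0.08), a factor that drives these genes, was not called.

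Inflammatory cytokine and NF-kB genes were called in 4 of 18 on the lactate side (22.2%, against 8.2% of all tested genes). None was called on the other side, and the median was 0.26. All 4 are secreted: CXCL1, CCL20, IL6 and CXCL8. An offset for GC content and exon length gave 4 on the lactate side and 2 on the other, with CXCL8 lost (edgeR adjusted p = 0.0515). With only the 8 libraries in the fit, 3 were called on the lactate side and none on the other. CXCL1, a neutrophil chemokine, stood at 51.6, 21.9, 23.6 and 32.8 CPM with lactate and at 9.89, 14.1, 10 and 11.1 CPM with I-BET762, with controls at 12.8 to 17.3 CPM (log2 1.52 ± 0.23, edgeR adjusted p = 0.000907). IL6 stood at 32.4, 17, 25.1 and 34.0 CPM against 4.36, 9.09, 8.73 and 9.7 CPM, a 3.39-fold difference (edgeR adjusted p = 0.00304), with controls at 6.45 to 14.7 CPM. CXCL8 overlapped between the groups, since the library labelled I-BET762 replicate 2 reached 222.3 CPM and lactate replicate 3 stood at 151.0 CPM (log2 1.00 ± 0.32, edgeR adjusted p = 0.0479). The NF-kB subunits NFKB1 (-0.23), NFKB2 (-0.41), RELA (-0.15) and RELB (-0.29) were not called.

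**Figure D4:**
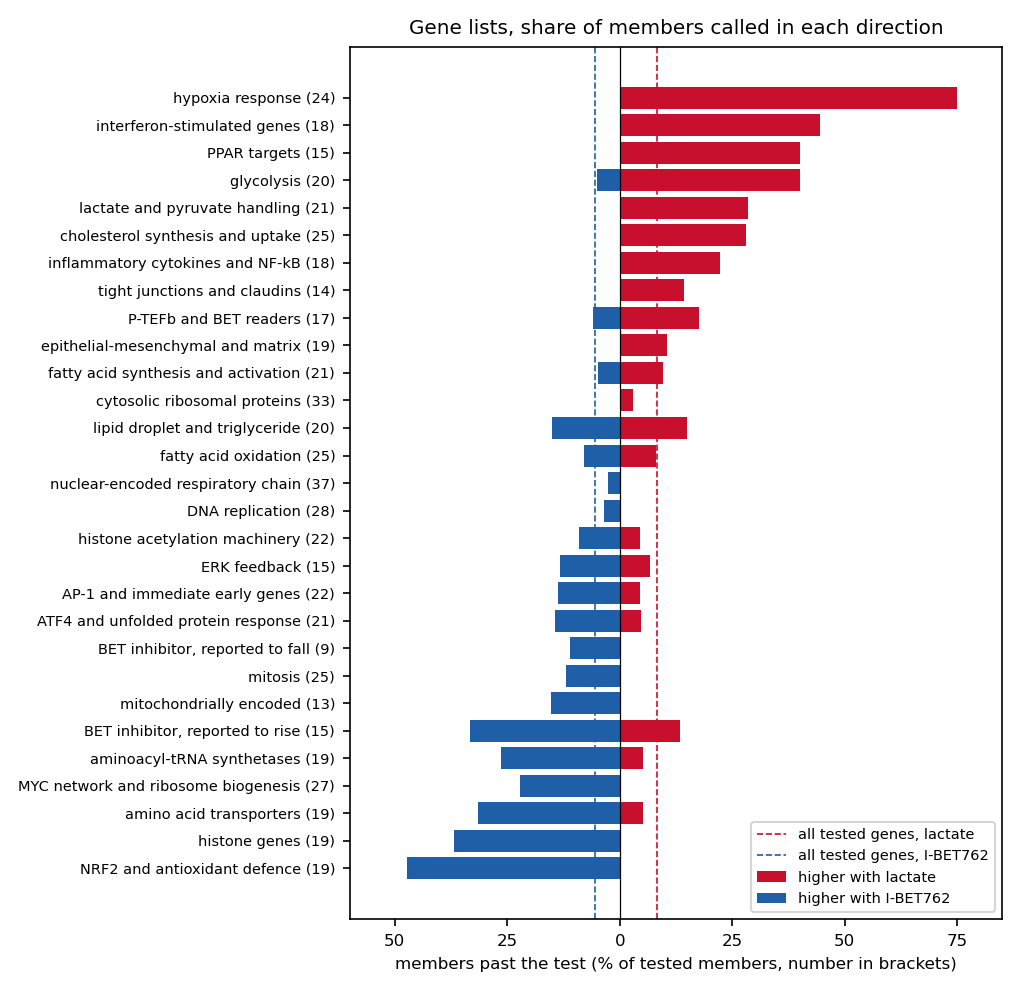
Share of tested members called in each direction, to the right higher with lactate and to the left higher with I-BET762, for 29 gene lists with the number of tested members in brackets; dashed lines give the shares of all tested genes (8.2% and 5.47%). Hypoxia response reaches 75% on the lactate side and NRF2 and antioxidant defence 47.4% on the I-BET762 side.

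On the I-BET762 side, the list with the largest share of calls was that of NRF2 and antioxidant defence. As above, the lists were chosen with earlier results known. NRF2, encoded by NFE2L2, drives genes of glutathione and thioredoxin metabolism and of NADPH supply. Of 19 tested members, 9 (47.4%, against 5.47% of all tested genes) were higher with I-BET762 and none with lactate. The median was -0.43. The count was 13 without the doubted pair and 4 with only the 8 libraries in the fit. NQO1, a quinone reductase, stood at 933.7, 587.2, 596.6 and 767.4 CPM with lactate and at 1266.5, 1116.3, 1300.2 and 1318.6 CPM with I-BET762 (log2 -0.79 ± 0.14, edgeR adjusted p = 0.00181). GSR, glutathione reductase, stood at 245.4 to 343.4 CPM against 411.0 to 479.9 CPM (log2 -0.64 ± 0.10, edgeR adjusted p = 0.00118). TXNRD1, thioredoxin reductase, differed by -0.81, and the pentose phosphate enzymes PGD and TKT by -0.64 and -0.43. GCLC, which makes the glutathione precursor, differed by -0.41, and SLC7A11, the cystine importer, by -0.78. NFE2L2 itself (-0.22) and HMOX1 (-0.23), a classical target, were not called. NQO1 and GSR differed from control with lactate (-0.64 and -0.55, edgeR adjusted p = 0.00428 and 0.00193) but not detectably with I-BET762 (0.15 and 0.09, edgeR adjusted p = 0.788 and 0.866). For NQO1, control replicate 2, the library that stood apart in HEXIM1, was the highest control at 1238.1 CPM, and the other 3 lay at 962.4 to 1168.8 CPM. OSGIN1 showed the reverse, with -0.30 (edgeR adjusted p = 0.328) and 1.22 (edgeR adjusted p = 0.0473).

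Amino acid transporters were called in 6 of 19 on the I-BET762 side (31.6%) and in 1 on the lactate side (5.26%). The shares of all tested genes were 5.47% and 8.2%, and the median of the list was -0.46. SLC7A5, the large neutral amino acid transporter LAT1, on chromosome 16 (87830023 to 87869488, minus strand, GRCh38), stood at 86.2, 248.2, 246.2 and 176.1 CPM with lactate. With I-BET762 it stood at 405.4, 457.4, 439.3 and 420.7 CPM (log2 -1.19 ± 0.23, edgeR adjusted p = 0.00487), and at -0.92 without the doubted pair. The controls stood at 269.2 to 409.5 CPM, above the lactate libraries, and the highest of them exceeded the lowest I-BET762 library. SLC1A4, which carries alanine and serine, stood at 19.0 to 28.4 CPM against 47.5 to 62.0 CPM (log2 -1.22 ± 0.16, edgeR adjusted p = 0.000272). SLC7A6 (-0.95), SLC7A2 (-0.74) and the glutamine transporter SLC1A5 (-0.63) were also higher with I-BET762. The remaining called transporter was SLC7A11, which is counted in the NRF2 and ATF4 lists as well. SLC1A1, a glutamate transporter, went the other way, at 9.66 to 14.1 CPM with lactate and 6.18 to 8.09 CPM with I-BET762 (log2 0.83 ± 0.15, edgeR adjusted p = 0.00232). SLC3A2, the partner chain of LAT1, was not called (-0.14). Lactate replicate 1 had the lowest mean of this list among the 8 libraries.

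Aminoacyl-tRNA synthetases, which load tRNAs, were called in 5 of 19 on the I-BET762 side (26.3%) and in 1 on the lactate side, with a median of -0.24, or 2 and none with only the 8 libraries in the fit. GARS1 stood at 342.0 to 445.6 CPM with lactate and 548.8 to 597.4 CPM with I-BET762, with controls at 490.9 to 718.3 CPM (log2 -0.56 ± 0.11, edgeR adjusted p = 0.00577). TARS1 (-0.46), MARS1 (-0.52), HARS1 (-0.46) and KARS1 (-0.30) were called in the same direction. Genes of ATF4 and the unfolded protein response were called in 3 of 21 on the I-BET762 side (14.3%) and 1 on the lactate side (4.76%). All tested genes gave 5.47% and 8.2%. PSAT1, of serine synthesis, stood at 571.5 to 719.3 CPM against 832.5 to 1014.5 CPM (log2 -0.58 ± 0.13, edgeR adjusted p = 0.0101), and CHAC1, which degrades glutathione, differed by -0.75 ± 0.21. DDIT4, an inhibitor of mTORC1 that is also on the hypoxia list, was higher with lactate (0.68 ± 0.20), a call lost without the doubted pair (0.52, edgeR adjusted p = 0.109). The chaperones HSPA5 (0.41) and HSP90B1 (0.46) were not called.

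Growth-related lists had smaller differences. The MYC network and ribosome biogenesis list was called in 6 of 27 on the I-BET762 side (22.2%) and none on the other, with a median of -0.19. The called genes were the nucleolar factors UTP14A (-0.45), UTP20 (-0.66), NOLC1 (-0.34), NOP2 (-1.10) and RRP12 (-0.45), with ODC1 (-0.62), the first enzyme of polyamine synthesis. NOP2 was near the floor, at a mean of 0.948 CPM over the 8 libraries. UTP20 was not called without the doubted pair (-0.57, edgeR adjusted p = 0.0559). With only the 8 libraries in the fit, none of the 27 was called. MYC stood at 68.6 to 87.3 CPM with lactate and 83.1 to 97.5 CPM with I-BET762 and was not called (-0.23 ± 0.11, edgeR adjusted p = 0.155). Mitosis genes were called in 3 of 25 (12%) and DNA replication genes in 1 of 28 (3.57%), all higher with I-BET762, against 5.47% of all tested genes. With only the 8 libraries in the fit, none of either list was called. BUB1, a spindle checkpoint kinase, stood at 86.2 to 108.3 CPM with lactate, 128.1 to 155.6 CPM with I-BET762 and 141.4 to 165.5 CPM in controls (log2 -0.51 ± 0.10, edgeR adjusted p = 0.00546). MCM3, of the replicative helicase, stood at 200.3 to 268.5 CPM against 328.7 to 373.6 CPM (log2 -0.50 ± 0.10, edgeR adjusted p = 0.00578). PCNA (-0.03) and CDK1 (0.10) were not called.

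Histone genes were called in 7 of 19 on the I-BET762 side (36.8%, against 5.47% of all tested genes) and none on the other. The median was -0.13. All 7 are members of the clustered histone families, which have near-identical copies and mostly lack poly(A) tails, so their counts from polyadenylated RNA are uncertain. H2BC5 stood at 13.5, 16.6, 18 and 15.7 CPM with lactate. With I-BET762 it stood at 36.0, 39.7 and 37.8 CPM in replicates 1, 3 and 4 and at 15.3 CPM in replicate 2 (log2 -1.01 ± 0.24, edgeR adjusted p = 0.0127). The controls stood at 15.1 to 27.6 CPM, replicate 2 being the highest. H2BC21 showed the same arrangement, at 23.4 to 29.8 CPM with lactate, 23.2 CPM in the library labelled I-BET762 replicate 2 and 49.2 to 71.6 CPM in the other 3, with controls at 29.4 to 45.5 CPM. H4C8 did not overlap, with 12.3 to 15.3 CPM against 18.1 CPM in replicate 2 and 31.0 to 40.5 CPM in the other 3. With only the 8 libraries in the fit, 1 of the 19 was called. The variants H3-3A (0.05), H3-3B (0.02) and H2AZ1 (0.08) were not called.

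Genes reported elsewhere to rise under BET inhibitors were called in 5 of 15 on the I-BET762 side (33.3%). On the lactate side 2 were called (13.3%). The shares of all tested genes were 5.47% and 8.2%, and the median of the list was -0.23. The 5 were HEXIM1 and the 4 histone genes H2BC4, H2BC5, H2BC12 and H2BC21. Also counted in the histone list above were at least H2BC4, H2BC5 and H2BC21. With only the 8 libraries in the fit, none of the 15 was called on the I-BET762 side. SAT1, which acetylates polyamines, and TXNIP were higher with lactate (1.05 ± 0.24 and 1.97 ± 0.49). SAT1 stood at 623.9, 239.6, 229.0 and 325.0 CPM with lactate and at 152.7, 215.9, 150.1 and 165.4 CPM with I-BET762. Of the 9 tested genes known to fall when BET proteins are inhibited, 1 was called, FOXM1, a proliferation factor, which stood at 91.6 to 142.7 CPM with lactate and at 163.7 to 168.0 CPM with I-BET762 (log2 -0.45 ± 0.12, edgeR adjusted p = 0.0219). It was therefore lower with lactate than with the inhibitor. FOSL1, an AP-1 subunit, was not called (-0.40 ± 0.20, edgeR adjusted p = 0.186).

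P-TEFb and BET reader genes were called in 3 of 17 on the lactate side (17.6%) and 1, HEXIM1, on the other. HEXIM2, the paralogue of HEXIM1, differed in the opposite direction, at 12.4, 6.94, 6.45 and 10.9 CPM with lactate and at 3.73, 3.52, 4.51 and 4.35 CPM with I-BET762, with controls at 2.69 to 4.75 CPM (log2 1.17 ± 0.24, edgeR adjusted p = 0.00615). CDK9, the kinase of P-TEFb, stood at 99.9 to 120.4 CPM against 81.6 to 95.9 CPM (log2 0.37 ± 0.10, edgeR adjusted p = 0.0284), a call lost with an offset for GC content and exon length (edgeR adjusted p = 0.115). BRD9 rested on lactate replicate 1 (121.6 CPM, against 55.9 to 63.9 CPM in the other lactate libraries) and was not called without the doubted pair (0.37, edgeR adjusted p = 0.0702). BRD2 had at most 3 counts and was not tested. Among histone acetylation genes 1 of 22 was higher with lactate and 2 with I-BET762 (4.55% and 9.09%), near the 8.2% and 5.47% of all tested genes. KAT2A, the acetyltransferase GCN5, stood at 53.8 to 79.9 CPM with lactate and 102.3 to 119.3 CPM with I-BET762, with controls at 88.3 to 109.1 CPM (log2 -0.67 ± 0.14, edgeR adjusted p = 0.00662), and HDAC11, a deacetylase, at 12.9 to 19.3 CPM against 10 to 10.6 CPM (log2 0.66 ± 0.14, edgeR adjusted p = 0.00631).

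AP-1 and immediate early genes were called in 1 of 22 on the lactate side (4.55%) and 3 on the other (13.6%). The shares of all tested genes were 8.2% and 5.47%, here and for the ERK feedback list below. Besides NR4A3, its relative NR4A2 (-0.93 ± 0.25) and the survival factor MCL1 (-0.50 ± 0.16) were higher with I-BET762, and the zinc-finger factor KLF6 was higher with lactate (0.81 ± 0.21), and the calls of KLF6 and MCL1 were lost without the doubted pair (0.54 and -0.40, edgeR adjusted p = 0.0784 and 0.0581). FOS (0.65), JUN (0.38) and EGR1 (0.32) were not called. The ERK feedback list was called in 1 of 15 on the lactate side (6.67%) and 2 on the other (13.3%). SPRY1, a Sprouty inhibitor of receptor signalling, stood at 6.41, 8.8, 4.59 and 5.21 CPM with lactate and at 2.14, 2.57, 1.84 and 1.43 CPM with I-BET762, with controls at 1.84 to 2.88 CPM (log2 1.65 ± 0.25, edgeR adjusted p = 0.000792). SPRED2 (-0.54) and EPHA2 (-0.65) were higher with I-BET762, and neither was called without the doubted pair. DUSP6, the ERK phosphatase, was not called (-0.36).

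Tight junction genes were called in 2 of 14, TJP3 (0.88 ± 0.25) and CLDN7 (1.24 ± 0.38), and matrix and epithelial-mesenchymal genes in 2 of 19, COL5A1 and TGFBI (0.43 ± 0.12), all higher with lactate (14.3% and 10.5%, against 8.2% of all tested genes). CLDN7 was not called without the doubted pair (edgeR adjusted p = 0.0556). COL5A1 rested on 3, 14, 21 and 8 counts with lactate and 5, 1, 2 and 2 with I-BET762. VIM (0.16) and ZEB1 (-0.04) were not called.

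**Figure D5:**
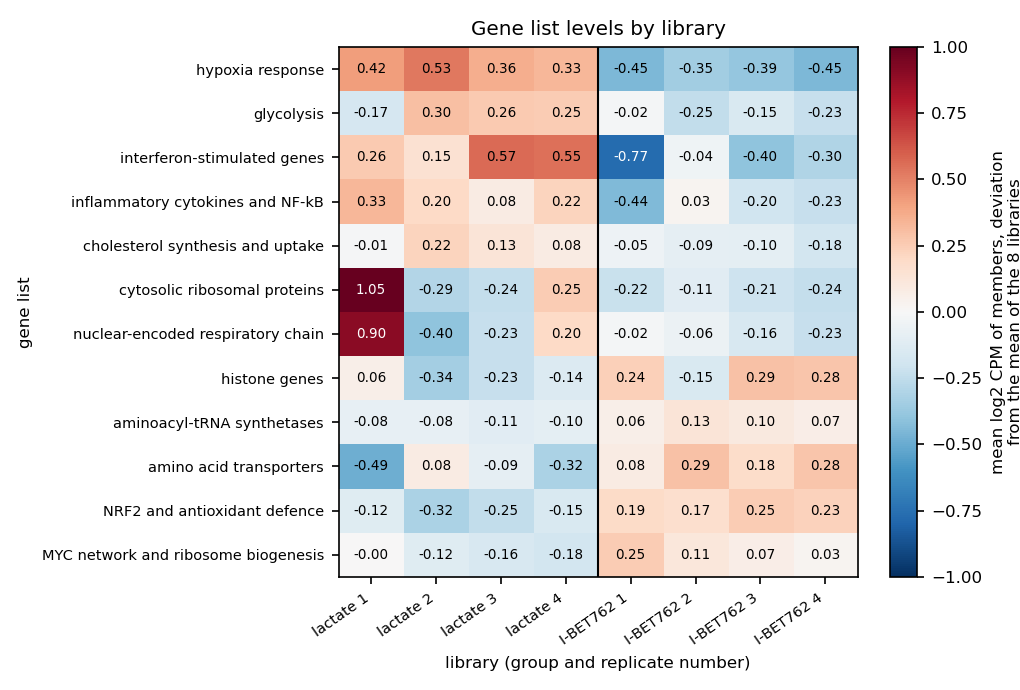
Mean log2 CPM of the tested members of 12 gene lists in each library, as the deviation from the mean of the 8 libraries (rows are lists, columns libraries, red above and blue below that mean). Hypoxia response is above 0.3 in every lactate library and below -0.3 in every I-BET762 library, while the ribosomal protein and respiratory chain lists are highest in lactate replicate 1 alone.

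Ribosomal protein and respiratory chain genes followed lactate replicate 1. The 33 cytosolic ribosomal protein genes had a median difference of 0.56 with 1 call, and 0.15 without the doubted pair, and their mean deviation was 1.05 in lactate replicate 1 and -0.29, -0.24 and 0.25 in lactate replicates 2, 3 and 4. The 37 nuclear-encoded respiratory chain genes had a median of 0.37, or 0.02 without the doubted pair. RPL38 stood at 1505.1 CPM in lactate replicate 1, at 380.9, 404.8 and 658.1 CPM in replicates 2 to 4 and at 392.5 to 444.5 CPM with I-BET762 (log2 0.85 ± 0.30, edgeR adjusted p = 0.0664). The respiratory chain gene called was ATP5F1B, of the ATP synthase, at 749.3 to 1001.5 CPM against 1093.3 to 1211.3 CPM (log2 -0.40 ± 0.09, edgeR adjusted p = 0.013). Of 13 mitochondrially encoded transcripts, MT-ND1 (-0.71) and MT-ND2 (-0.70) were higher with I-BET762, neither after leaving out the doubted pair (edgeR adjusted p = 0.0523 and 0.064).

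GC content and exon length moved with the contrast. The genes higher with lactate had a median GC content of 53.3% and exon length of 3780 bases, those higher with I-BET762 46.0% and 5718 bases, and all tested genes 48.1% and 4694 bases. Across genes, Spearman's rho of the log2 difference was 0.12 on GC content and -0.26 on exon length, given as a description since genes are not replicates. Within the lactate group, rho of a library's deviations on length ran from -0.42 and -0.40 in replicates 4 and 1 to 0.10 and 0.24 in replicates 3 and 2. With an offset for both properties, 1492 genes (10.2%) were higher with lactate and 1098 (7.47%) with I-BET762. Under it 1762 of the 2007 genes were still called and all 2007 kept their sign. Hypoxia members higher with lactate then numbered 18 of 24 (median 0.92), not the same 18, since DDIT4 was lost (edgeR adjusted p = 0.0866). The counts were 9 of 18 for interferon-stimulated genes on the lactate side and 10 of 19 for NRF2 and 9 of 19 for amino acid transporters on the I-BET762 side. The part of GC content and length in the remaining differences was not tested.

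Besides HEXIM1, 102 named genes passed the test, and 68 passed it again in each of the 8 fits that left out 1 library. The calls of ANGPTL4, TXNIP, PDK3, SREBF1, BSCL2, ACADSB, ETFB, HSD17B4, KIF11, TTK, UTP20, NOLC1, RRP12, CHAC1, DDIT4, CXCL8, KLF6, NR4A2, MCL1, SPRED2, EPHA2, H2BC4, FOXM1, CDK9, BRD9, H2BC21, KAT8, MT-ND2, MT-ND1, TJP3, CLDN7, COL5A1 and TGFBI were among those lost in at least 1 of these fits, with adjusted p up to 0.163 in edgeR. Without the doubted pair 14 of the 102 were lost (edgeR adjusted p = 0.0523 to 0.121). They were ANGPTL4, SREBF1, ETFB, TTK, UTP20, DDIT4, KLF6, MCL1, SPRED2, EPHA2, BRD9, MT-ND1, MT-ND2 and CLDN7. The genes with the largest differences in each direction were chosen among those called in the fit without that pair. These genes could not be lost there, yet the 102 includes them, so 14 of 102 overstates how stable the calls were. With the offset for GC content and exon length 8 were lost, HSD17B4, TTK, DDIT4, CXCL8, CDK9, MT-ND1, MT-ND2 and CLDN7 (edgeR adjusted p = 0.0515 to 0.139). More were lost with only the 8 libraries in the fit (39) and with I-BET762 replicates 3 and 4 summed (25). The 39 included BUB1, MCM3, TARS1, PSAT1, FDPS, SAT1 and ATP5F1B (edgeR adjusted p = 0.0534 to 0.126).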

How the data were processed

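For the 16 polyA RNA libraries the authors deposited 1 table of unnormalised counts, a row for each Ensembl gene. Per the labels' protocols, 800 ng of RNA per library was used and reads were single ends of 75 bp; STAR 2.6.1c, DESeq, GRCh38.p12 and hg38 are named, per the submitters' processing notes. How reads were assigned to genes (program, strand setting, annotation) is not given in the sources used here. Genes were kept by filterByExpr in edgeR 4.0.16 (R 4.3.3; minimum count 10, minimum total 15), which left 14690. Library sizes were scaled by TMM. The 4 group means were fitted over all 16 libraries by quasi-likelihood (12 residual degrees of freedom), and lactate minus I-BET762 was tested two-sided with Benjamini-Hochberg adjustment at 0.05. The SE of a log2 difference was taken as its absolute value divided by the square root of the quasi-likelihood F statistic. CPM values use the TMM-scaled sizes. Symbols and coordinates came from GENCODE release 29, GRCh38, and a table of gene names, and 707 of 707 list entries were matched.

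The comparison, the gene lists and the genes always named (HEXIM1, SERPINI1, MYC, FOSL1, SLC16A3, LDHA, LDHB, BNIP3, PDK1, ANGPTL4, PLIN2, CPT1A and TXNIP) were chosen with earlier results of these data known. The rule also named the 12 largest differences in each direction described in the text and at most 4 genes a list, those of smallest p. Other members are given by list. Alternatives were RLE size factors, total counts, other filters, DESeq2 1.42.0, limma-voom 3.58.1 with and without quality weights, a block for replicate number, fits without single libraries or the doubted pair, and offsets for GC content and exon length. The fit was tested on simulated data. A few list members are counted but not reported here by name.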

Additional observations from a re-analysis of the deposited data

Results flagged for a closer look

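In 17 of 254 sets of 4 libraries (1 gene in 1 group), the highest or lowest library stood apart from the other 3 by Dixon's test at the 95% level, and chance alone flags about 1 in 20 sets. Lactate replicate 1 accounted for 7 of the 17 and the library labelled I-BET762 replicate 2 for 5. Lactate replicate 1 was lowest for ACSS2 (227.2 CPM), UCP2 (36.4 CPM), RFC3 (28.0 CPM), MARS1 (311.8 CPM), OAS2 (0.813 CPM) and TGFBI (85.6 CPM), and highest for BRD9 (121.6 CPM). The library labelled I-BET762 replicate 2 was highest for CXCL8 (222.3 CPM), RPL38 (444.5 CPM) and CLDN4 (121.1 CPM), and lowest for H2BC5 (15.3 CPM) and VAMP1 (11 CPM). The others were IGFBP3 in lactate replicate 2 (15.7 CPM), MCM7 in lactate replicate 4 (240.3 CPM), PGK1 in I-BET762 replicate 1 (607.7 CPM), PDK3 in I-BET762 replicate 3 (8.37 CPM) and CHKA in I-BET762 replicate 4 (70.1 CPM), each the highest of its group. Why these libraries stood apart was not tested.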

How the results depend on the processing

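The count of 2007 genes (1204 higher with lactate, 803 with I-BET762) became 3893 (2172 and 1721) by limma-voom with quality weights, 555 (437 and 118) with the 8 libraries fitted alone and 960 (628 and 332) with I-BET762 replicates 3 and 4 summed as 1 library. DESeq2 gave 2852 and the filter at a mean of 5 CPM gave 1417, which moved the I-BET762 side to 1229 and 507. That side held 366 genes without the doubted pair with 6 libraries fitted alone (1434 in all), and 1290 with the offset for GC content and exon length and no doubted pair (2860 in all). Leaving out 1 library gave 866 to 3543 genes, 571 to 1949 on the lactate side and 295 to 1594 on the I-BET762 side. The cause of these shifts was not tested, beyond the smaller number of libraries or genes in a fit. The share of calls on the lactate side was 60.0%, with 68.2% when scaled by total counts, 78.7% with the 8 libraries alone and 54.9% at the lowest.

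HEXIM1, at -0.59, missed the threshold with total counts (-0.58), a mean of at least 5 CPM (-0.54), limma-voom (-0.57), the 8 libraries alone (-0.58), the GC offset (-0.57) and the summed libraries (-0.60), and ranged from -0.70 to -0.45 when 1 library was left out. LDHB, at 0.75, turned to -0.32 with quality weights, -0.07 without the doubted pair, also when control replicate 2 was left out with it, -0.04 in the 6 libraries alone and -0.09 with the offset and no doubted pair, and ranged from -0.12 to 1.01 when 1 library was left out. UHRF1, at -0.30, turned to 0.12 with quality weights. Of the 102 other named calls, 102 kept their sign in every setting and 57 their call. Some of the 102 were chosen as called without the doubted pair, which is among these settings. Of all tested genes, 225 on the lactate side and 82 on the I-BET762 side were called under all 24 settings.

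The correlation of same-numbered deviations from the group means was 0.03, -0.03, 0.25 and 0.11 for replicates 1 to 4. The I-BET762 library that correlated best with lactate replicates 1, 2, 3 and 4 was replicate 2, 1, 3 and 3. A batch shared by replicates 1 and 2 or by replicates 3 and 4 was not tested. With replicate number as a block 2546 genes were called (1402 and 1144). The settings that summed replicates 3 and 4, combined the offset or the 6 libraries with leaving out the pair, or also left out control replicate 2 (2609 genes) were chosen after seeing the data.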

Other observations

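MALAT1, a nuclear long noncoding RNA chosen here after its values were seen, was the most abundant gene called, with means of 5817.7 CPM with lactate and 2034.6 CPM with I-BET762 (log2 1.52 ± 0.49, edgeR adjusted p = 0.0487). That call was near the threshold, and the levels of MALAT1 by library and its results in other fits are not given here. AC145098.2, also chosen after its values were seen, had the largest difference towards I-BET762 among called genes averaging over 4 CPM (log2 -2.60 ± 0.37, edgeR adjusted p = 0.000615), with means of 1.33 and 8.28 CPM.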
